A study of Mus musculus with 10 samples.

Results

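Microglial and complement genes were followed in the hippocampus of adult mice with and without DLK. This neuronal kinase, the product of Map3k12, acts upstream of the JNK pathway in neurons. The set was a list of 34 genes, chosen by name as genes that mark microglia or encode complement proteins, not by their values here. A gene was matched to the arrays by the RefSeq accession that the scanner files give for each probe, and its brightest probe represented it. Of the 34 genes, 33 had a matching probe and 31 were tested, among 23574 features tested in all, of which 16268 were named genes. Cd68, the macrosialin of lysosomes, had no probe whose accession was matched to it. The probe of Spi1, which encodes the myeloid transcription factor PU.1, was not above background to the scanner's criterion on any of the arrays. Lyz2, which encodes lysozyme of myeloid cells, was well above background on 4 of 10 arrays, 2 WT and 2 cKO, and also stayed out of the test. The other 31 genes were well above background on all 10 arrays, so none of them entered through 1 genotype alone.

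The wild-type group (WT) held 5 mice with intact DLK, and the conditional knockout group (cKO) held 5 mice in which loss of DLK had been induced. All 10 mice, WT included, ate a tamoxifen diet for 3 weeks, so no group without tamoxifen was compared. The labels record no excitotoxic injury of these animals, and describe no pooling of tissue. The sources used here do not name the recombinase and its driver, the deleted exons, or the sex and exact age of the animals. Hippocampal RNA carried Cy5 throughout and was hybridised beside Universal mouse reference RNA from Stratagene, a commercial pool, labelled with Cy3. Each value below is the log2 ratio of hippocampus over that reference, so 1 unit is a doubling, and each difference is cKO minus WT with n = 5 arrays per group. Dyes were not swapped. A ratio therefore includes any dye effect of its probe, which both genotypes share, and ratios of different genes are not levels that can be ranked against each other.

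Microglia are the resident macrophages of brain tissue and survey it through surface receptors, among them the fractalkine receptor Cx3cr1 and the purine receptor P2ry12. They depend on the growth factor receptor Csf1r, and they signal through Trem2 and its adaptor Tyrobp when they take up debris. In the brain, microglia are the main source of C1q, which starts the classical complement cascade, while C4 and C3 are later components. C3 tags a surface for uptake through complement receptor 3, whose alpha chain is Itgam. Astrocytes and other cells make C3 and C4 as well. In bulk tissue, fewer cells of a type and less RNA per cell cannot be told apart, and that holds for every value below.

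The start of 4 of these genes is shown as context for the values, as a window of 300 bases, 250 before and 50 after the annotated start, written 5′ to 3′ in the sense of the gene. The sequences are from RefSeq, build GRCm38.p6. C1qb (chr4:136886151-136886450, minus strand) and C1qc (chr4:136892865-136893164, minus strand) lie side by side with C1qa and encode chains of 1 protein. Ctss (chr3:95526536-95526835, plus strand) encodes the lysosomal protease cathepsin S, and Cx3cr1 (chr9:120068247-120068546, minus strand) the fractalkine receptor. Capitals mark GAGGAA and GGAAGT, letters of the kind that PU.1 and other Ets factors are known to bind, on either strand. These letters can share bases, and where both lie on the opposite strand they read ACTTCCTC.
C1qb: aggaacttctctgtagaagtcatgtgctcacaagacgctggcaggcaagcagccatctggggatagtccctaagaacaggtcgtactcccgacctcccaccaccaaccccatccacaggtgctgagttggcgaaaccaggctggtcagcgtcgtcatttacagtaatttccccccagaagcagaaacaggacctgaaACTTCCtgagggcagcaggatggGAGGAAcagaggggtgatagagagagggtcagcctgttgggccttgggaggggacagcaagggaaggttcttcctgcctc
C1qc: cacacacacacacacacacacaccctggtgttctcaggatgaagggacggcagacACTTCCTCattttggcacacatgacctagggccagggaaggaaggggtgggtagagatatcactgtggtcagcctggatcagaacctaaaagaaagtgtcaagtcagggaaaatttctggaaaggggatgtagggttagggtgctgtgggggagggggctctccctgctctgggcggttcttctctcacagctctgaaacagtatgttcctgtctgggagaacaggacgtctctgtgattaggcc
Ctss: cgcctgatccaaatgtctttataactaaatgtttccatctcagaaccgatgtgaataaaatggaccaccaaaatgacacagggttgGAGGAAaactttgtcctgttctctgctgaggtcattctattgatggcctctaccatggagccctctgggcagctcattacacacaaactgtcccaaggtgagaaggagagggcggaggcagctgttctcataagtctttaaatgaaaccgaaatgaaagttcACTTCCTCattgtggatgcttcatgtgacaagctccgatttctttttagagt
Cx3cr1: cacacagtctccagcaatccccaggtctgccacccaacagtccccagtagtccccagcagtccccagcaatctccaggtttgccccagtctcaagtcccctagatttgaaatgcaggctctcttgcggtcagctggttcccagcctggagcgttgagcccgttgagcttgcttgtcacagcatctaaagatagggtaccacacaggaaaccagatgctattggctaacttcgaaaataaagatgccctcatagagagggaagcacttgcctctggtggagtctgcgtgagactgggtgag
The windows of C1qb, C1qc and Ctss held both sets of letters, and that of Cx3cr1 held neither. RefSeq windows were used for 24 of the 34 genes, 29 windows in all. GAGGAA was in 51.7% of them (15 windows) and in 28.3% of the 32851 windows of all genes. GGAAGT was in 48.3% (14 windows), against 23.8% of all windows, and either was in 69.0% (20 windows), against 43.4%. Some genes have several overlapping windows. A match says only that these letters are present, and binding was not measured here.

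Over all arrays, the median Cy5 signal lay between 146 and 202, over a median Cy5 background of 29 to 31, and the median Cy3 signal lay between 131.5 and 141.5. The share of probes well above background in Cy5 ranged from 69.6% to 76.1%. The targeted gene Map3k12 was lower on all 5 cKO arrays, with a log2 ratio of 1.93 ± 0.19 (SD, n = 5) in WT and 0.51 ± 0.24 in cKO. It fell by 1.41 (SE 0.12, limma adjusted p = 0.000975) and was the only feature past an adjusted p of 0.05, so 0.00424% of the 23574 features were called. Of 3 slides, the first carried cKO 1, 3, 4 and 5, the second WT 1, 2 and 4 beside cKO 2, and the third WT 3 and WT 5. Genotype and slide can therefore be separated only within slide 2, through the single array of cKO 2. WT 5 had the highest median Cy5 signal of the 10 arrays (202) and cKO 5 the lowest (146), and both stood apart in the genes described here.

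All 13 surface genes that mark microglia were well above background in hippocampus of both genotypes. Of the 31 genes, 20 had a higher mean signal in WT hippocampus than in the reference (64.5%) and 11 a lower one, where 55.8% of all features were higher, so the count itself is near the background. For 14 genes the ratio was above 1, and for 6 it was below −1. Cx3cr1 was 47.8-fold above the reference in WT by its brightest probe (log2 ratio 5.58 ± 0.15, SD, n = 5), and all 3 C1q chains were above it as well. The size depended on the probe, as a second Cx3cr1 probe had a WT mean of 2.50. Siglech was just below the reference on its brightest probe (−0.14) and at 3.32 on a second, whose reference signal was not well above background. For P2ry12 and Gpr34, a lysophosphatidylserine receptor of microglia, the reference signal was well above background on none of the arrays, and for the purine receptor P2ry13 it was on 1 of 10. Their ratios are set in part by the background and the offset of 50, so no fold over the reference is given. Their Cy5 signal on the WT arrays was 1107.5 to 1354 for P2ry12, 1108.5 to 1716 for Gpr34 and 216 to 283 for P2ry13. The 6 genes below −1 were C3, the pattern receptors Cd14 and Tlr2, the leukocyte surface proteins Ptprc (CD45) and Cd53, and the Fc receptor chain Fcer1g, with log2 ratios between −4.73 for C3 and −1.56 for Cd53. The reference pool holds its own RNA of these genes, so a negative ratio says that the pool gave more signal, not that the gene was silent in hippocampus.

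**Figure D1:**
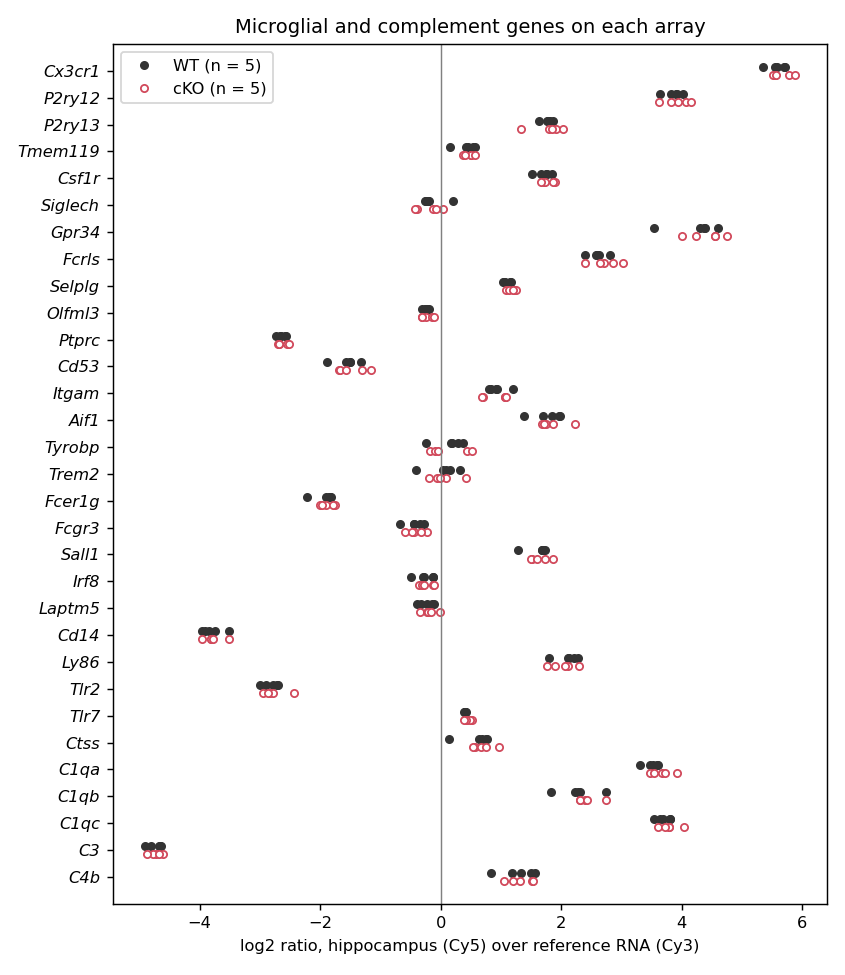
Log2 ratio of hippocampus over reference RNA (horizontal axis) for the 31 tested genes (rows) on each array, with 5 WT arrays as filled points and 5 cKO arrays as open points. In every row the points of the genotypes overlap, and the rows span from −4.90 for C3 to 5.88 for Cx3cr1.

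No member of the set passed the test between genotypes. In limma's test over all features, 0 of 31 passed an adjusted p of 0.05, each with an adjusted p of 0.99995, against 0.00424% of all features. At an unadjusted p under 0.05 the count was also 0 of 31, where 2.83% of all features (668) were higher in cKO and 1.03% (243) lower. For none of the 31 did the 5 cKO arrays lie wholly above or below the 5 WT arrays, against 0.53% of all features above and 0.246% below. Differences ranged from −0.08 for Ly86 to 0.18 for Gpr34. The 95% interval of the difference stayed within 1.3-fold either way for 29 of 31 genes and within 1.5-fold for 30 of 31, with bounds from −0.36 for Tyrobp to 0.59 for Gpr34. These intervals are not adjusted for the number of features, and they hold for the probe and processing used here, whose background offset pulls ratios of dim probes towards 0. The labels do not say how the mice were related or when tissue was taken, so p-values measure the spread between these arrays, which may be technical in part.

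**Figure D2:**
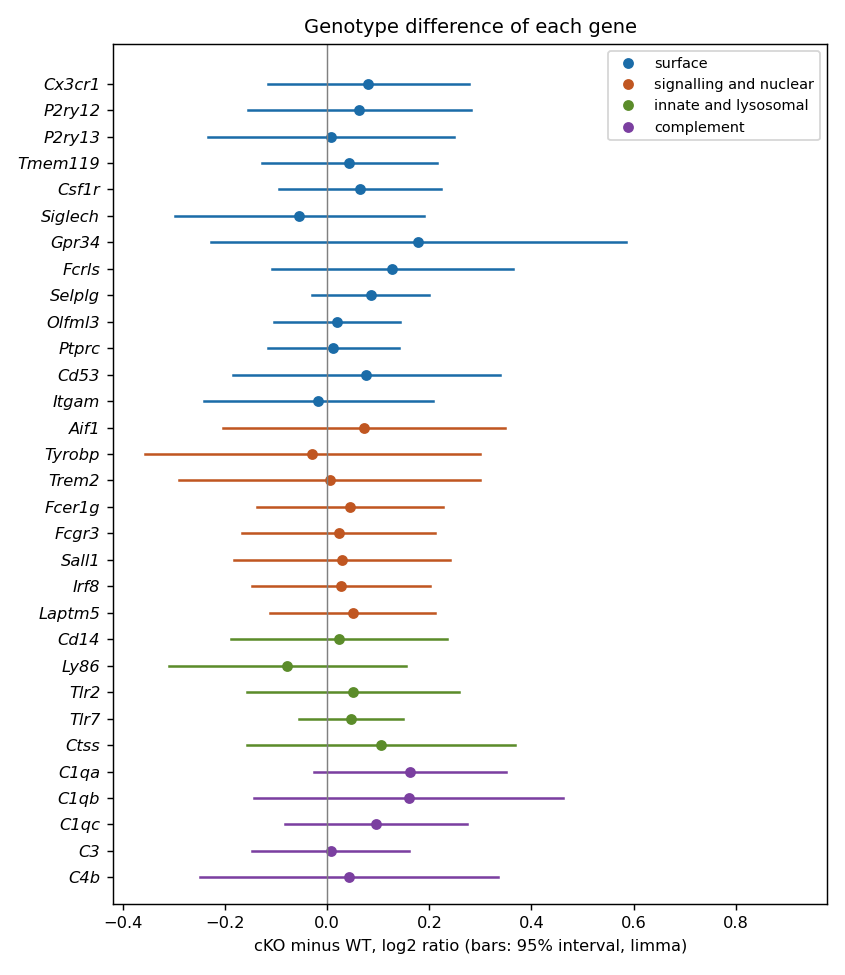
Difference cKO minus WT in log2 ratio (horizontal axis) for each of the 31 genes, with points coloured by role and bars for the 95% interval from limma. Every interval includes 0, and the highest bound is 0.59, for Gpr34.

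Most of the small differences had the same sign. In cKO 27 of 31 genes had a higher mean, or 87.1%, against 54.8% of all features, and the median difference was 0.04, against 0.0083 over all features. By role, the mean was higher for 11 of 13 surface genes (median difference 0.06), 7 of 8 signalling and nuclear genes (0.03), 4 of 5 innate receptor and lysosomal genes (0.05) and 5 of 5 complement genes (0.10). The genes share cells and arrays, so these counts are not independent observations. Among single arrays left out, 2 changed this count most. Without WT 5, 16 of 31 genes were higher in cKO, and without cKO 5 it was 17, while 54.1% and 53.1% of all features were higher. Without both it was 8, with a median difference of −0.05, against 52.2% of all features. These arrays were picked after seeing that they were the lowest and the highest for most of these genes. Leaving them out therefore lowers most differences by construction, here and for the single genes below. On slide 2 alone, where cKO was the single array cKO 2, 4 of 31 were higher, against 50.4% of all features. The median difference there was −0.12 and rests on that array. With arrays centred on their median in place of the loess normalisation, all features shifted down together: their median was −0.06 and 25.8% of them were higher in cKO. The 31 genes moved with them, to a median of −0.03 and 8 higher. Counted against the median of all features, 22 of 31 were higher there and 24 as reported.

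Among surface receptors, Cx3cr1 had log2 ratios of 5.72, 5.58, 5.55, 5.70 and 5.34 on WT 1 to 5 and of 5.78, 5.55, 5.52, 5.56 and 5.88 on cKO 1 to 5. WT 5 was the lowest array and cKO 5 the highest, with the other 8 between 5.52 and 5.78. The difference was 0.08 (SE 0.09). A second, dimmer Cx3cr1 probe gave 0.15 (SE 0.10), with WT 3 lowest and cKO 1 highest. P2ry12, through which microglial processes sense ATP and ADP, gave 4.03, 3.93, 3.82, 3.90 and 3.64 in WT and 3.95, 3.63, 4.08, 3.82 and 4.15 in cKO. Its lowest arrays were cKO 2 and WT 5, and the groups overlapped over most of their range. The difference was 0.06 (SE 0.10). Its neighbour on the chromosome, the related receptor P2ry13, differed by 0.01 (SE 0.11).

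Tmem119, a membrane protein used to tell microglia from other macrophages, gave 0.45, 0.54, 0.56, 0.43 and 0.15 in WT and 0.50, 0.36, 0.50, 0.41 and 0.58 in cKO. WT 5 lay below the other 9 arrays, which spanned 0.36 to 0.58. The difference was 0.04 (SE 0.08). Csf1r, the receptor for the survival factors Csf1 and Il34, gave 1.76, 1.85, 1.77, 1.67 and 1.52 in WT and 1.72, 1.73, 1.66, 1.90 and 1.87 in cKO. WT 5 was again the lowest, and the highest array was cKO 4. The difference was 0.06 (SE 0.07), with a 95% interval from −0.09 to 0.22. On a dimmer Csf1r probe the difference was 0.01 (SE 0.06), with WT 3 lowest and WT 2 highest. On another it was −0.02 (SE 0.07), with WT 5 lowest and cKO 1 highest. Selplg, the P-selectin ligand, whose gene lies next to Tmem119, gave 1.07, 1.14, 1.17, 1.06 and 1.03 in WT and 1.22, 1.09, 1.14, 1.25 and 1.20 in cKO. Its arrays lay between 1.03 and 1.25, and 3 cKO arrays lay above all of WT. The difference was 0.09 (SE 0.05). Fcrls, an Fc receptor-like protein of mouse microglia, gave 2.59, 2.62, 2.82, 2.58 and 2.40 in WT and 2.71, 2.40, 2.86, 2.65 and 3.02 in cKO. The lowest array of each group read 2.40, and cKO 5 was the highest of all. The difference was 0.13 (SE 0.11).

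Siglech, a sialic acid-binding receptor of microglia, went the other way. Its brightest probe gave −0.26, −0.22, −0.24, −0.20 and 0.21 in WT and −0.13, 0.05, −0.39, −0.08 and −0.43 in cKO, so that WT 5 was the highest array and cKO 5 the lowest. The difference was −0.06 (SE 0.11). That probe was very bright in both channels, at 43295 to 68321.5 in Cy5 and 69603.5 to 88490 in Cy3. A second Siglech probe read 657 to 958 in Cy5 and 37 to 47.5 in Cy3, and its reference signal was well above background on none of the arrays. On it WT 1 was lowest and WT 4 highest, and the difference was 0.08 (SE 0.08). The probes disagreed on the sign of the small difference, and neither difference passed the test. Itgam, the alpha chain of complement receptor 3, was also highest on WT 5 and lowest on cKO 5 with its brightest probe (difference −0.02, SE 0.10). That Itgam probe was also very bright, at 18940 to 35366.5 in Cy5, while its other 2 probes read 121 to 336 and 167 to 247. On both of these cKO 2 was the lowest array, with differences of −0.06 and −0.01. The highest arrays there were cKO 1 and WT 3, so the opposite order of WT 5 and cKO 5 was seen on the brightest Itgam probe only.

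Of the signalling genes, Trem2, a lipid-sensing receptor, gave 0.33, 0.05, 0.08, 0.16 and −0.41 in WT and −0.06, −0.19, 0.08, −0.02 and 0.41 in cKO. Its lowest and highest arrays were WT 5 and cKO 5, while WT 1 to 4 lay above most of the other cKO arrays. The difference was 0.00 (SE 0.14), and without WT 5 and cKO 5 it was −0.20. Tyrobp, the adaptor that carries the Trem2 signal, gave 0.37, 0.20, 0.17, 0.28 and −0.24 in WT and −0.18, −0.09, 0.43, −0.04 and 0.52 in cKO. It had the same pair at its ends, with cKO 3 also high. The difference was −0.03 (SE 0.15) and −0.23 without the pair. Among the rest, Aif1, the calcium-binding protein Iba1 used to stain microglia, differed by 0.07 (SE 0.13), and the Fc receptor genes Fcer1g and Fcgr3 by 0.04 (SE 0.08) and 0.02 (SE 0.09). The transcription factors Sall1 and Irf8, which maintain microglial identity, each differed by 0.03, with SE 0.10 and 0.08, and the lysosomal membrane protein Laptm5 by 0.05 (SE 0.07).

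In the innate receptor and lysosomal group, Ly86, which encodes MD-1, the partner of the Toll-like protein Cd180, had the smallest p of the 4 genes that were lower in cKO. It gave 2.11, 2.22, 2.12, 2.27 and 1.80 in WT and 1.77, 1.89, 2.11, 2.06 and 2.30 in cKO. WT 5 stood with the 2 lowest cKO arrays, and the other 4 WT arrays lay above cKO 1, 2 and 4. The difference was −0.08 (SE 0.11), and −0.22 without WT 5 and cKO 5. Ctss differed by 0.10 (SE 0.12). The pattern receptors Cd14, a co-receptor for lipopolysaccharide, Tlr2, which binds bacterial lipopeptides, and Tlr7, which binds single-stranded RNA, differed by 0.02 (SE 0.10), 0.05 (SE 0.10) and 0.05 (SE 0.05).

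C1qa, C1qb and C1qc encode the 3 chains of C1q, whose transcription start windows are printed above for C1qb and C1qc. C1qa gave 3.59, 3.47, 3.61, 3.52 and 3.32 in WT and 3.67, 3.47, 3.73, 3.54 and 3.92 in cKO. It had the smallest unadjusted p of the 31 genes, and 3 cKO arrays lay above all of WT. The difference was 0.16 (SE 0.09), with a 95% interval from −0.03 to 0.35. C1qb gave 2.74, 2.31, 2.28, 2.24 and 1.83 in WT and 2.39, 2.32, 2.74, 2.32 and 2.43 in cKO. WT 1 and cKO 3 shared the top, and WT 5 lay well below the other arrays. The difference was 0.16 (SE 0.14). C1qc gave 3.81, 3.64, 3.80, 3.68 and 3.54 in WT and 3.78, 3.61, 3.80, 3.72 and 4.04 in cKO. WT 5 was lowest and cKO 5 highest, and the other 8 arrays lay between 3.61 and 3.81. The difference was 0.10 (SE 0.08). Without WT 5 and cKO 5 the differences were 0.05 for C1qa and C1qb and 0.00 for C1qc.

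C3, the central component on which all complement pathways meet, gave −4.66, −4.67, −4.64, −4.81 and −4.90 in WT and −4.72, −4.77, −4.88, −4.60 and −4.67 in cKO. It was 26.6-fold below the reference in WT by its brightest probe, while a second C3 probe had a WT mean of −3.51. On the brightest probe the groups covered the same range. The difference was 0.01 (SE 0.07), with a 95% interval from −0.15 to 0.16. C4b, which follows C1q in the classical pathway, gave 1.57, 1.50, 1.33, 1.18 and 0.84 in WT and 1.33, 1.06, 1.20, 1.52 and 1.53 in cKO. WT 5 was the lowest and WT 1 the highest, so both ends of the range were WT arrays. The difference was 0.04 (SE 0.13).

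The spread between arrays was wide beside the genotype differences. The median SD within genotype was 0.17 over the 31 genes, against 0.12 over all features. WT 5 was the lowest of the 10 arrays for 23 of 31 genes, where it was lowest for 20.1% of all features. The highest array was cKO 5 for 20 of 31, against 20.7% of all features. Both held for 16 genes, or 51.6%, against 9.37% of all features. The median deviation of the 31 genes from their own mean over the 10 arrays was −0.26 on WT 5, 0.23 on cKO 5 and −0.12 on cKO 2, and lay between −0.02 and 0.07 on the other 7 arrays. Over all features the median deviation lay between −0.01 and 0.02 on every array. The loess normalisation centres each array, so these medians over all features were held near 0 beforehand. By role, WT 5 was lowest for 9 of 13 surface genes, 7 of 8 signalling and nuclear genes, 2 of 5 innate and lysosomal genes and 5 of 5 complement genes, and cKO 5 was highest for 9, 5, 4 and 2 of them.

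**Figure D3:**
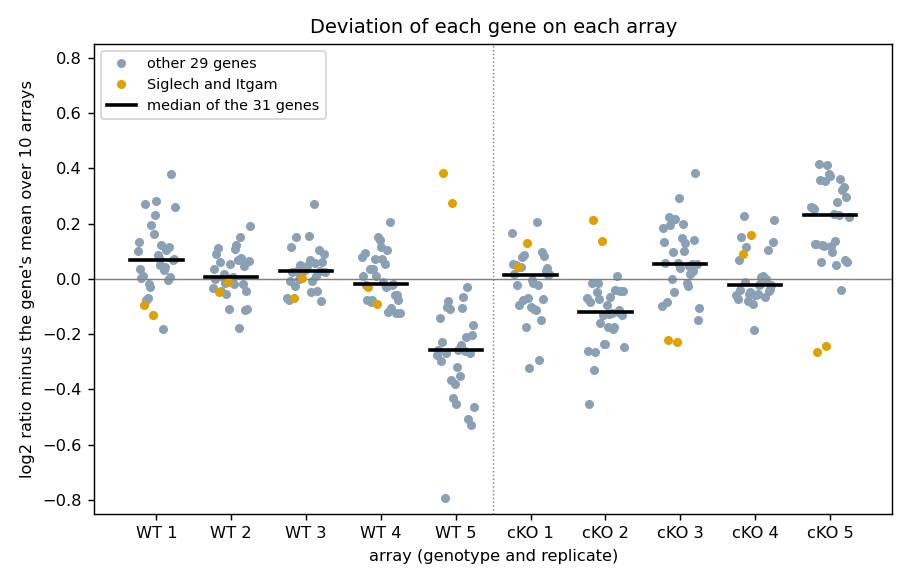
Log2 ratio of each of the 31 genes minus its mean over the 10 arrays (vertical axis) on each array (horizontal axis), with 1 point per gene and a bar at the median. The medians of WT 5 (−0.26) and cKO 5 (0.23) lie farthest from 0. Siglech and Itgam, in another colour and each read from its brightest probe, deviate the opposite way on both.

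These counts changed with the normalisation and with the probes counted. With arrays centred on their median, WT 5 was lowest for 11 of 31 genes and cKO 5 highest for 0, against 7.86% and 2.59% of all features. With Cy5 alone the counts were 22 and 16, given without the share of all features and so not read against a background. The genes with several kept probes offer a further view: 9 genes had 11 other kept probes, and on these WT 5 was lowest for 2 (18.2%) and cKO 5 highest for 1 (9.09%). Over the other kept probes of all named genes the shares were 19.3% and 15.9%. The brightest probes of the same 9 genes gave 5 and 2. The median deviation on WT 5 was close for both, at −0.09 over the 11 other probes and −0.10 over the 9 brightest. On cKO 5 it was −0.0082 and 0.06. Over the other kept probes of all named genes it was −0.0048 on WT 5 and 0.0007 on cKO 5, again held near 0 by the loess. Among the 11 other probes, 7 were higher in cKO and 0 had an unadjusted p under 0.05. In a limma fit over all 28682 kept probes, 0 of the 42 kept probes of these genes passed an adjusted p of 0.05, against 0.0105% of all probes. The part that array intensity, dissection or the state of the animals had in the values of WT 5 and cKO 5 was not tested.

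**Figure D4:**
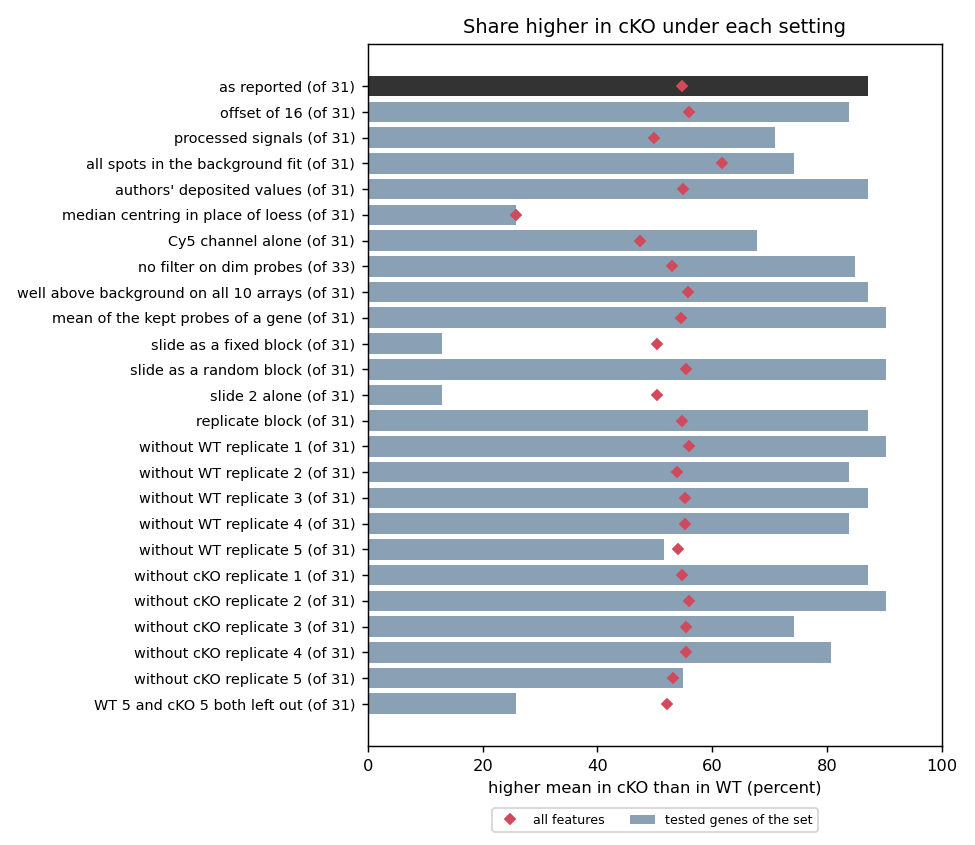
Percent of the tested genes of the set (bars) and of all features (diamonds) with a higher mean in cKO than in WT, as reported and under each other setting (rows, with the number of genes tested). As reported the bar is at 87.1% and the diamond at 54.8%, with median centring both are at 25.8%, and without WT 5 and cKO 5 the bar is at 25.8% and the diamond at 52.2%.

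Genes that work with or beside these were also read, from lists of the same kind, and none of their members passed limma's adjusted p of 0.05. Of 33 further complement genes 22 were tested, and 13 were higher and 9 lower in cKO, with a median difference of 0.01. Colec12, a scavenger receptor of the collectin family, had the smallest unadjusted p (0.31, SE 0.09), followed by Cd59a, an inhibitor of the membrane attack complex (0.27, SE 0.13), and properdin, Cfp, which stabilises the alternative pathway convertase (−0.20, SE 0.11). Of 12 ligands and partners through which other cells signal to microglia, 8 were higher, with a median of 0.01. Gas6, a bridging ligand for uptake of dying cells, had the smallest p among them (0.14, SE 0.07).

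Of 36 other microglial genes 33 were tested, and 27 were higher in cKO, with a median of 0.05. The transporter Slco2b1 (0.16, SE 0.08) and the sialic acid receptor Cd33 (0.09, SE 0.06) were among the genes with the smallest p. WT 5 was the lowest array for 21 of these 33 genes and cKO 5 the highest for 13. Of 20 genes of reactive microglia tested, 10 were higher and 10 lower, with a median of −0.0048. The lysosomal cathepsins Ctsz (0.14, SE 0.07) and Ctsd (0.10, SE 0.07) and the ferritin chain Fth1 (0.13, SE 0.09) had the smallest p, and all 3 were on the higher side. Of 16 genes tested of cytokines, chemokines and the enzymes Nos2 and Ptgs2, 4 were higher and 12 lower, with a median of −0.03. Tnf had the smallest p there (−0.08, SE 0.05), ahead of Nos2 (−0.09, SE 0.06). Of 10 further genes tested of Toll-like receptors and the proteins that work with them, such as Myd88, 3 were higher, with a median of −0.02.

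Markers of other cells differed between arrays as well, and several lists lay higher in cKO. Of 10 markers of the macrophages of brain borders, 9 were tested and all 9 were higher in cKO, with a median of 0.14. Stab1, a scavenger receptor (0.18, SE 0.06), and Ms4a7 (0.37, SE 0.15) had a limma p under 0.05 before adjustment, and cKO 5 was the highest array for all 9. Of 16 markers of blood leukocytes 10 were tested, with 5 higher and a median of 0.00. Of 12 oligodendrocyte markers 10 were higher in cKO, with a median of 0.31, and 8 of them had an unadjusted limma p under 0.05, against 2.83% of all features. Their median deviation lay between −0.40 and −0.01 on the WT arrays and between 0.05 and 0.27 on the cKO arrays, with no overlap. All 12 neuronal markers were higher (median 0.13, 1 with such a p), as were 10 of 12 endothelial markers (median 0.12, 4 with such a p) and 10 of 12 astrocyte markers (median 0.07, 0 with such a p). For the median deviation of each list, WT 5 gave −0.28 for 12 astrocyte markers, −0.40 for 12 oligodendrocyte markers, −0.15 for 12 endothelial markers and 0.00 for 12 neuronal markers, and cKO 5 gave 0.31, 0.27, 0.18 and 0.16. Of 12 choroid plexus markers 11 were tested, and all 11 were higher in cKO, with a median difference of 1.1. Of these, 8 had an unadjusted limma p under 0.05, against 2.83% of all features. The highest array was cKO 5 for all 11. The median deviation of the choroid plexus list ran from −0.85 to −0.11 in WT and from −0.04 to 1.11 in cKO, with no overlap. That of the border macrophage list ran from −0.22 to 0.05 in WT and from −0.07 to 0.23 in cKO. The part that other cell types in the dissected tissue had in the values of the microglial genes was not tested.

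**Figure D5:**
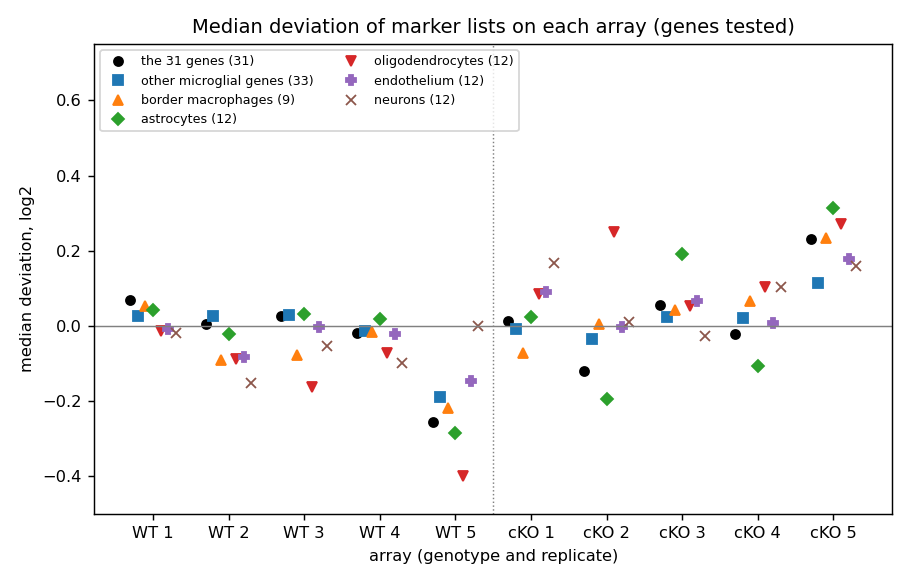
Median deviation from the mean over 10 arrays (vertical axis, log2) of the 31 genes and of 6 marker lists on each array, with the number of genes tested in brackets. On WT 5 every list but neurons (0.00) lies at −0.15 or lower, and on cKO 5 all 7 lie at 0.11 or higher.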

How the data were processed

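RNA of 10 hippocampi, 5 WT and 5 cKO, was measured on 2-colour Agilent arrays, 750 ng of cRNA each. The deposited scanner files hold the spot and background intensity of both channels, from Agilent Feature Extraction, version 11 per the submitters' processing notes, not normalised. The authors' deposited value table holds log2 values per probe. Set against the ratios computed here, its columns correlated at 0.99997 or more, with medians of 0.0120 to 0.0204, so it is log2 of Cy5 over Cy3, uncentred. It served as an alternative.

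Spots marked non-uniform were removed, background was corrected with normexp (offset 50) and ratios were normalised by loess within arrays, with limma 3.58.1 in R 4.3.3. Of 39429 probes, 28682 with Cy5 well above background on at least 5 arrays were kept, and the brightest probe represented each gene. Probes were named through RefSeq accessions of GRCm38.p6, which named 67.4% of probes; the array headers name another build. Genotypes were compared with lmFit and eBayes, two-sided, Benjamini-Hochberg over 23574 features. Missing values (135) were filled with group means for the fits with a slide block, fixed or random, and with the replicate block. The fit was tested on simulated data.

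The genes and lists were chosen with earlier results of these data known, marked spots too. Values on every array are given for 11 genes fixed by name and for the 3 higher and 3 lower genes with the smallest p; other lists name at most 3, and a gene that this rule would name is not reported here. Alternatives covered background, normalisation, filter, probe choice, slide, replicate block and each array left out. The number of arrays limits the precision.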

Additional observations from a re-analysis of the deposited data

Results flagged for a closer look

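In groups of 5 arrays, 62 in all, 6 held an array whose gap to the nearest other, divided by the range, was above Dixon's critical value of 0.71. Chance alone marks about 1 in 20 groups. WT 5 was that array in 5 of the 6. Siglech was 0.21 on WT 5, where the other WT arrays lay between −0.26 and −0.20. Gpr34, whose reference signal was not well above background, was 3.54 on WT 5, against 4.31 to 4.60. Fcer1g was −2.22, against −1.90 to −1.82, and Sall1, a microglial transcription factor, was 1.28, against 1.68 to 1.74. Ctss was 0.14, against 0.63 to 0.76. In cKO, C1qb was 2.74 on cKO 3, against 2.32 to 2.43 on the other cKO arrays. Of the 5 genes of WT 5, Siglech was above the other WT arrays and the other four were below them.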

How the results depend on the processing

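In all 24 alternatives, 0 of the 744 values of single genes passed limma's adjusted p of 0.05, with 0 to 7 of 31 genes at an unadjusted p under 0.05 (7 on slide 2 alone, where cKO is 1 array and 8.42% of all features had such a p, against 3.86% as reported), and 167 values had the other sign. The features past the threshold numbered 0 with all spots in the background fit, with Cy5 alone and on slide 2 alone, 2 with the mean of a gene's kept probes, and 1 to 2 when leaving out 1 array (2 without cKO 4). The genes higher in cKO, 27 as reported, numbered 8 with median centring (25.8%, as of all features), 4 with slide as a fixed block and on slide 2 alone, 8 without both WT 5 and cKO 5, and 16 to 28 when leaving out 1 array. The median difference was −0.12 with slide as a fixed block and on slide 2 alone. Both slide results rest on cKO 2. The genes with cKO 5 highest numbered 13 with processed signals and 0 with median centring, and those with WT 5 lowest 15 with all spots and 11 with median centring. The counts with processed signals and with all spots are given without the share of all features. Leaving out WT 5 and cKO 5 together, and counting extreme arrays under other settings, were chosen after seeing the data. Slide as a random block had a fitted correlation of −0.13. With the replicate block, 1 feature and 0 of the 31 genes passed and 27 were higher. Arrays with the same number had deviations correlated at −0.19, −0.03, 0.16, −0.38 and −0.56, so the numbers were not taken to pair mice. The cause of these changes was not tested. Signal over background limits Spi1 and Lyz2, which were tested only in the alternative without a filter on dim probes. There 1 of 33 genes had an unadjusted limma p under 0.05, against 4.31% of all features, and 0 passed the adjusted p.

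Differences, cKO minus WT, whose sign turned were as follows. With an offset of 16: P2ry13 −0.0082. With processed signals: P2ry13 −0.53, Ptprc −0.022, Fcer1g −0.018, Irf8 −0.0037, C3 −0.011. With all spots in the background fit: Ptprc −0.11, Cd53 −0.0086, Itgam 0.012, Fcgr3 −0.0053, Cd14 −0.042, Ly86 0.0060, Tlr2 −0.063, C3 −0.0012. With median centring: Cx3cr1 −0.0092, P2ry13 −0.011, Tmem119 −0.046, Csf1r −0.034, Selplg −0.0049, Olfml3 −0.062, Ptprc −0.063, Aif1 −0.017, Trem2 −0.087, Fcer1g −0.048, Fcgr3 −0.025, Sall1 −0.042, Irf8 −0.051, Laptm5 −0.025, Cd14 −0.065, Tlr2 −0.026, Tlr7 −0.044, C3 −0.087, C4b −0.050. With Cy5 alone: P2ry12 −0.039, Tmem119 −0.00069, Olfml3 −0.029, Itgam 0.00087, Trem2 −0.0040, Fcer1g −0.027, Tlr7 −0.0091, C4b −0.025. With the mean of a gene's kept probes: Siglech 0.011. With slide as a fixed block, and equally on slide 2 alone: Cx3cr1 −0.12, P2ry12 −0.32, P2ry13 −0.50, Tmem119 −0.11, Csf1r −0.029, Siglech 0.27, Gpr34 −0.45, Fcrls −0.20, Olfml3 −0.026, Ptprc −0.080, Cd53 −0.21, Itgam 0.22, Aif1 −0.20, Trem2 −0.37, Fcer1g −0.15, Fcgr3 −0.19, Sall1 −0.20, Irf8 −0.14, Laptm5 −0.12, Cd14 −0.094, Tlr2 −0.066, Ctss −0.17, C1qa −0.056, C1qb −0.11, C1qc −0.097, C3 −0.062, C4b −0.36. With slide as a random block: Tyrobp 0.00021. Without both WT 5 and cKO 5: Cx3cr1 −0.034, P2ry12 −0.050, P2ry13 −0.089, Tmem119 −0.052, Csf1r −0.0087, Siglech 0.093, Gpr34 −0.079, Olfml3 −0.026, Ptprc −0.042, Cd53 −0.084, Itgam 0.11, Aif1 −0.12, Trem2 −0.20, Fcer1g −0.054, Fcgr3 −0.061, Sall1 −0.11, Irf8 −0.059, Cd14 −0.058, Tlr2 −0.080, Ctss −0.076, C1qc −0.0049, C3 −0.049, C4b −0.12. When leaving out 1 array, ranges that held both signs were Tyrobp −0.13 to 0.048, Cd14 −0.044 to 0.093, C3 −0.034 to 0.045, P2ry13 −0.055 to 0.12, Tmem119 −0.026 to 0.078, Siglech −0.12 to 0.034, Ptprc −0.016 to 0.032, Cd53 −0.0049 to 0.13, Itgam −0.059 to 0.049, Aif1 −0.026 to 0.12, Trem2 −0.11 to 0.076, Fcer1g −0.030 to 0.073, Fcgr3 −0.039 to 0.068, Sall1 −0.055 to 0.065, Irf8 −0.029 to 0.062, Ctss −0.0088 to 0.15, C4b −0.068 to 0.11, Olfml3 −0.0082 to 0.042, Tlr2 −0.034 to 0.094.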
